A study of Mus musculus with 12 samples.

Results

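The transcription factors *Sall1*, *Mef2a*, *Mef2c*, *Mef2d* and *Maf* were followed across ChIP-seq profiles of RNA polymerase II and of histone H3 acetylated at lysine 27 (H3K27ac) in microglia with and without *Cx3cr1*. The members were the peaks whose nearest-gene column named 1 of the 5 genes, which took in 105 of 26706 peaks of the polymerase subunit Rpb2 and 172 of 55862 H3K27ac peaks. The 5 genes stood among 17538 genes that had at least 1 peak of either kind. All animals were *Mus musculus*, strain C57BL/6J, aged 2 months, and came from crosses of mice heterozygous for an allele in which eGFP replaces part of *Cx3cr1*. Homozygous *Cx3cr1* eGFP/eGFP littermates are called KO and *Cx3cr1* +/+ littermates WT, and no other treatment was given. Microglia were sorted from brain as CD11b+ CD45lo cells, and each library came from a pool of 3 mice of 1 sex, so that each genotype had 2 pools per mark, 1 labelled female and 1 labelled male. The eGFP allele removes the receptor in every cell that would express it, and not in microglia alone. In bulk material, fewer cells of a type and less polymerase or acetylation per cell cannot be told apart.

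*Sall1* encodes a zinc-finger repressor that recruits the NuRD corepressor complex and that, in the adult brain, is found in microglia and not in other macrophages. The *Mef2* genes encode MADS-box activators whose output is set by class IIa histone deacetylases and by kinases, and Mef2 motifs are common at microglial enhancers. *Maf* encodes c-Maf, a large bZIP factor that binds Maf recognition elements as a homodimer or with other bZIP proteins and is active in macrophages. Rpb2 is the second-largest subunit of RNA polymerase II, and its ChIP signal marks engaged polymerase at promoters, along gene bodies and at some enhancers. H3K27ac marks active promoters and enhancers.

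Because many Rpb2 peaks of these genes lay far from a start site, the sequences under 5 of them are shown, 1 for each gene. The 2 member windows that matched a loose MEF2 pattern are shown as well. Each is the central 200 bases of the peak, read on the plus strand of GRCm38, and none overlapped an annotated exon. The *Sall1* window was chr8:89404264-89404463, intergenic and inside a wide acetylated domain. The *Mef2a* windows were chr7:67463659-67463858, intergenic, and chr7:67324175-67324374, in an intron. The *Mef2c* windows were chr13:83518336-83518535 and chr13:83579182-83579381, both intronic. The *Mef2d* window was chr3:88138826-88139025 and the *Maf* window chr8:115681344-115681543, both intergenic. Capitals mark letters that matched a searched motif.
Sall1, 360 kb upstream: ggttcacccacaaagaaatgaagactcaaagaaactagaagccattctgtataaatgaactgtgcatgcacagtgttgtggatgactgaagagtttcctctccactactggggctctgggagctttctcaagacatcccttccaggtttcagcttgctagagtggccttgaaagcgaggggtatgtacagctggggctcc
Mef2a, 90.9 kb upstream: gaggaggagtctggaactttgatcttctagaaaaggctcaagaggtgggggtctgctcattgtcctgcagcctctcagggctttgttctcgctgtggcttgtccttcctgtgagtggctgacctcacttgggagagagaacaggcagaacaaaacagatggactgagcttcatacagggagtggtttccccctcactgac
Mef2c, 5.22 kb upstream: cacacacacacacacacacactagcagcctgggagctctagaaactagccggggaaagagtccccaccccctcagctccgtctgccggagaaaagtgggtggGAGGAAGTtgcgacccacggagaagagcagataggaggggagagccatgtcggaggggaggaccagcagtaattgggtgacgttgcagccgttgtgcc
Mef2d, 3.45 kb upstream: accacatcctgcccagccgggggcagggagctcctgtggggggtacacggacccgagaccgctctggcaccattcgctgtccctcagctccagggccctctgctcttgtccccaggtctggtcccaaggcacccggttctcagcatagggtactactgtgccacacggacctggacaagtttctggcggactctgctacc
Maf, 25.5 kb downstream: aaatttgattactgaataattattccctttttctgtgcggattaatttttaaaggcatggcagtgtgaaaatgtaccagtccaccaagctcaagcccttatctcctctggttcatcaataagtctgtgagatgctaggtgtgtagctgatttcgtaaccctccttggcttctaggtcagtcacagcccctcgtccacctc
Mef2a, 48.6 kb downstream: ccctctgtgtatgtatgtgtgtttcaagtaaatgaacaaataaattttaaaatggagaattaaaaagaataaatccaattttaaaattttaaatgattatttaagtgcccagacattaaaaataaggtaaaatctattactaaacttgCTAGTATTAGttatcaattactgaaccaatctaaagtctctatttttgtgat
Mef2c, 5.67 kb downstream: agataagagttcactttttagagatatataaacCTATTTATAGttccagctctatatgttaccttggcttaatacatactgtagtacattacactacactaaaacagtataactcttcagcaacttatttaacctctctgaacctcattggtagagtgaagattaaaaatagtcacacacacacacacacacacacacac

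The motifs were searched on both strands in the central 200 bases of 26702 Rpb2 peaks on assembled chromosomes. The MEF2 pattern (CTANNNNTAG) was loose, in that any base was allowed at its middle positions. It was in 2 of the 105 member windows and in 2.67% of all windows. The Maf half-site (TGCTGAC), whose last letters can overlap an AP-1 motif, was in 4 member windows against 4.08% of all. The PU.1 motif (GAGGAAGT) was in 2 member windows against 4.02% of all, and the AP-1 motif (TGANTCA) was in 7 against 4.62%. Among the printed windows, the PU.1 letters were in that of *Mef2c* 5.22 kb upstream of a start. The MEF2 pattern was matched in an intronic window each of *Mef2a* and *Mef2c*. At the middle positions the *Mef2a* match had a G, while the *Mef2c* match had only A and T. The *Mef2a* peak that matched this loose pattern had 0 and 9 WT reads and 105 and 35 KO reads. That of *Mef2c* had 35 and 0 WT reads and 75 and 44 KO reads, so neither peak had reads in every library. A match is a description of the letters and not of binding, and in 4 of the 7 windows printed no searched motif was found.

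The 8 libraries differed in depth and in the share of reads in peaks. Rpb2 libraries held 11662185 to 44332626 reads with 11.2% to 15.1% in peaks, and the deepest was the KO pool labelled female. H3K27ac libraries held 10395804 to 21134403 reads, of which 61.1% to 65.3% were in peaks in 3 libraries and 15.9% in the WT pool labelled female. Y-linked genes gave 136 reads in the Rpb2 library labelled WT female, against 0 in the KO female library and 214 and 266 in those labelled male, so that this library is named by its label throughout. At *Cx3cr1*, summed Rpb2 levels were 2759 and 2351 reads per 1000000 reads in peaks (CPM) in WT and 2124 and 1893 CPM in KO, with lower values in both KO pools (log2 fold change -0.35 ± 0.08 (SE), edgeR adjusted p = 0.121, DESeq2 adjusted p = 0.0234). Its H3K27ac levels were 1024 and 1765 CPM in WT and 1006 and 1056 CPM in KO (log2 fold change -0.44 ± 0.39 (SE), edgeR adjusted p = 0.946). Where the *Cx3cr1* peaks lie relative to the replaced sequence was not examined, so these levels do not check the genotype. All 7 microglial markers (*P2ry12*, *Tmem119*, *Csf1r*, *Fcrls*, *Siglech*, *C1qa*, *Olfml3*) had an Rpb2 peak within 1000 bp of a start, at a summed 3977 to 4036 CPM in WT and 3870.3 to 4031 CPM in KO. No Rpb2 peak was listed at any of 5 neuronal, 6 other myeloid or 3 lymphocyte markers, while 1 of 5 astrocyte, 2 of 5 oligodendrocyte and 2 of 4 endothelial markers had 1. The summed Rpb2 levels of these other cell types were 203 to 210 CPM in WT and 165 to 204 CPM in KO for astrocytes, 128 to 163 CPM and 135 to 163 CPM for oligodendrocytes, and 84.1 to 106 CPM and 77.4 to 94.0 CPM for endothelium, and their part in the results was not tested. For H3K27ac, all 7 microglial markers had peaks (1252 to 2255 CPM in WT, 1799 to 1857 CPM in KO), as did 3 of 5 neuronal (20.0 to 56.7 and 17.8 to 26.4 CPM), 3 of 5 astrocyte (347 to 541 and 473 to 478 CPM), 4 of 5 oligodendrocyte (309 to 379.8 and 340.4 to 379 CPM), 3 of 4 endothelial (232 to 289 and 285 to 295 CPM), 5 of 6 other myeloid (92.3 to 162 and 99.8 to 119.9 CPM) and 2 of 3 lymphocyte markers (25.6 to 26.6 and 18.4 to 23.3 CPM). Listed with no peak of either mark were *Tubb3* and *Stmn2* of the neurons, *Gfap* and *Aldh1l1* of the astrocytes, *Sox10*, *Tek*, *Ly6c2* and *Cd79a*.

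None of the 5 genes differed between genotypes in Rpb2 reads summed over its peaks at an adjusted p under 0.05, and the background was 0% of 10206 genes. Both KO pools were above both WT pools at *Mef2a* and *Mef2c*. *Mef2a* had 435 and 489 CPM in the WT pools labelled female and male and 604 and 601 CPM in the KO pools, so that the genotypes did not overlap. The means were 462 ± 38.7 (SD, n = 2) and 603 ± 1.97 (SD, n = 2) CPM, a log2 fold change of 0.38 ± 0.13 (SE) with an unadjusted p of 0.0085 and an edgeR adjusted p of 0.279. With only the peaks called in both genotypes the log2 fold change of *Mef2a* was 0.12 (adjusted p = 0.962).

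The other genes lay closer to no difference. *Mef2c* had 439 and 444 CPM in WT and 489 and 487 CPM in KO, without overlap (log2 fold change 0.14 ± 0.14 (SE), edgeR adjusted p = 0.749). Of its 17 peaks, 13 were called in KO only. The 4 called in both genotypes summed to 313 and 366 CPM in WT and 319 and 304 CPM in KO, with overlap. With only such peaks the log2 fold change of *Mef2c* was 0.07 (edgeR adjusted p = 0.950). *Sall1*, the member with the highest summed signal, had 1078 and 1273 CPM in WT and 1271 and 1196 CPM in KO, and the genotypes overlapped (0.07 ± 0.10, adjusted p = 0.849). *Mef2d* had 349 and 325 CPM in WT and 280.4 and 354 CPM in KO, again with overlap (-0.09 ± 0.17, adjusted p = 0.895). *Maf* had 453 and 422 CPM in WT and 423 and 405 CPM in KO (-0.08 ± 0.14, adjusted p = 0.890), and here too the genotypes overlapped. At an unadjusted p under 0.05, 1 of the 5 genes was higher in KO and 0 were lower, against 5.55% and 5.24% of all genes. Pools that did not overlap were seen with KO higher at 2 of the 5 and with KO lower at 0, against 22.4% and 19.7% of all genes. The 2 were *Mef2a* and *Mef2c*, whose peaks were mostly called in KO only.

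**Figure D1:**
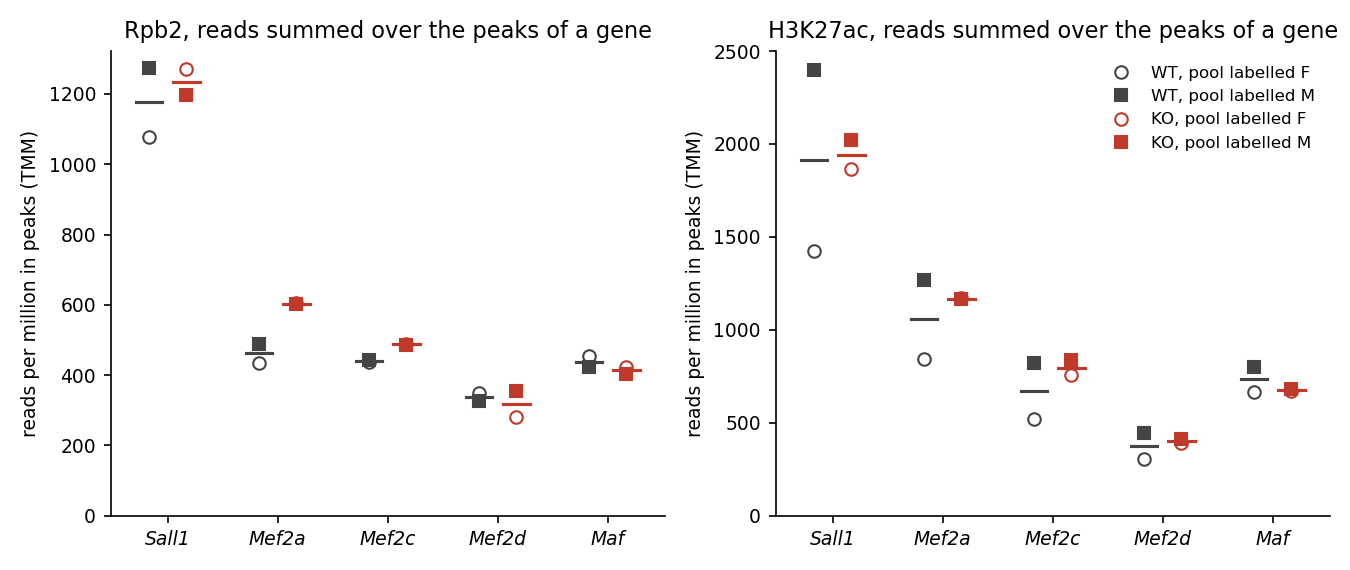
CPM after TMM scaling, summed over the peaks of each gene, for Rpb2 (left) and H3K27ac (right); open circles are pools labelled female, filled squares pools labelled male, and bars the mean of 2 pools. KO values lie above WT for Rpb2 at *Mef2a* and *Mef2c*, where most peaks were called in KO only. The WT pools lie far apart for H3K27ac at *Sall1* (1425 and 2397 CPM).

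No gene passed in H3K27ac either, where 0% of 16938 genes had an edgeR adjusted p under 0.05. *Sall1* had the largest summed H3K27ac level of all these genes in WT, with 1425 and 2397 CPM in the WT pools labelled female and male and 1865 and 2019 CPM in the KO pools. The KO pools lay between the WT pools (log2 fold change 0.02 ± 0.42 (SE), edgeR adjusted p = 0.999). *Mef2a* had 843 and 1269 CPM in WT and 1170.3 and 1165 CPM in KO (0.14 ± 0.37, adjusted p = 0.999). *Mef2c* had 519 and 823 CPM in WT and 755 and 837 CPM in KO (0.24 ± 0.35, adjusted p = 0.992). *Mef2d* had 302 and 445 CPM in WT and 389 and 412 CPM in KO (0.10 ± 0.30, adjusted p = 0.999). *Maf* had 666 and 799.6 CPM in WT and 668 and 683 CPM in KO (-0.12 ± 0.33, adjusted p = 0.999). In all 5 genes the genotypes overlapped and the WT pool labelled female, the library with few reads in peaks, was the lowest of the 4. Pools that did not overlap were found at 13.4% of all genes with KO higher and 14.2% with KO lower, and at 0 of the 5 genes. An unadjusted p under 0.05 was found at 0.951% of all genes with KO higher and 5.53% with KO lower, and again at 0 of the 5.

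The H3K27ac comparison rested on which WT pool was used. Without the WT pool labelled female, the log2 fold change was -0.30 at *Sall1* and -0.24 at *Maf*. It was -0.12 at *Mef2a*, -0.046 at *Mef2c* and -0.15 at *Mef2d*. Without the WT pool labelled male, it was 0.45 at *Sall1* and 0.021 at *Maf*. The *Mef2* genes then gave 0.47 (*Mef2a*), 0.62 (*Mef2c*) and 0.41 (*Mef2d*), so that the sign turned over at every gene. In either case 1 WT library was left, and it was assumed to vary as the KO pools do. Calls from these fits are therefore not given here.

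**Figure D2:**
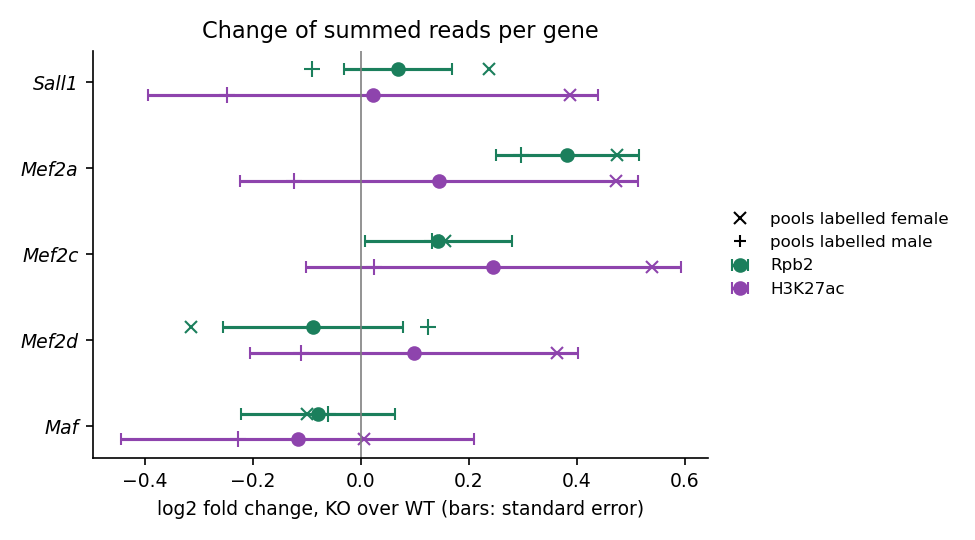
Log2 fold change (KO over WT) of summed reads for each gene, with Rpb2 and H3K27ac in separate colours, bars for the standard error, and crosses and plus signs for the ratio within the pools labelled female and male. For H3K27ac the female and male ratios at *Sall1* are 0.39 and -0.25; for Rpb2 at *Mef2a* they are 0.47 and 0.30.

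At single peaks, 0 of 105 Rpb2 and 0 of 172 H3K27ac member peaks passed an edgeR adjusted p of 0.05, against 0.00749% and 0.0233% of all peaks. At an unadjusted p under 0.05, 4 Rpb2 member peaks were higher and 4 lower in KO, which is 3.81% each against 6.12% and 6.06% of all peaks. For H3K27ac 0 were higher and 2 lower, or 1.16%, against 1.35% and 3.6% of all. DESeq2 called 1 of the 105 Rpb2 and 1 of the 172 H3K27ac member peaks. Over all peaks tested it called 1022 of 26706 for Rpb2 and 240 of 55798 for H3K27ac. The member peaks called were an intronic Rpb2 peak of *Mef2a* and an H3K27ac peak downstream of *Maf*, both lower in KO. With edgeR, leaving out either WT pool brought calls at member peaks and also moved the number called over all peaks of both marks. Such a fit leaves 1 WT library, so its calls at member peaks are not counted here.

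Of the 105 Rpb2 member peaks, 24 were called in both genotypes, 14 in WT only and 67 in KO only. The share called in KO only was 63.8%, against 53.0% of all Rpb2 peaks, and the KO libraries included the deepest one. Membership of a list follows from the reads in that genotype, so differences within the WT-only and KO-only lists are given as description. The median log2 fold change of the peaks called in both was -0.10 for the members and -0.17 for all peaks. Of the 24 member peaks 6 were higher in KO (25%, against 33.5% of all peaks in that list). In the KO-only list 54 of 67 member peaks were higher in KO (80.6%, against 75.8% of all peaks in that list), with a median of 0.81 against 0.51. In the WT-only list 13 of 14 were lower and 1 was higher (7.14%, against 7.18% of all peaks in that list). The median there was -1.28 against -0.89. For H3K27ac, 56, 45 and 71 member peaks were called in both, in WT only and in KO only. These were 32.6%, 26.2% and 41.3% of the member peaks, against 37.7%, 33.2% and 29.1% of all H3K27ac peaks tested. The median log2 fold change of those in both was -0.06 against 0.04 for all. In the WT-only list it was -2.42 against -6.78, and in the KO-only list 0.47 against 0.52.

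**Figure D3:**
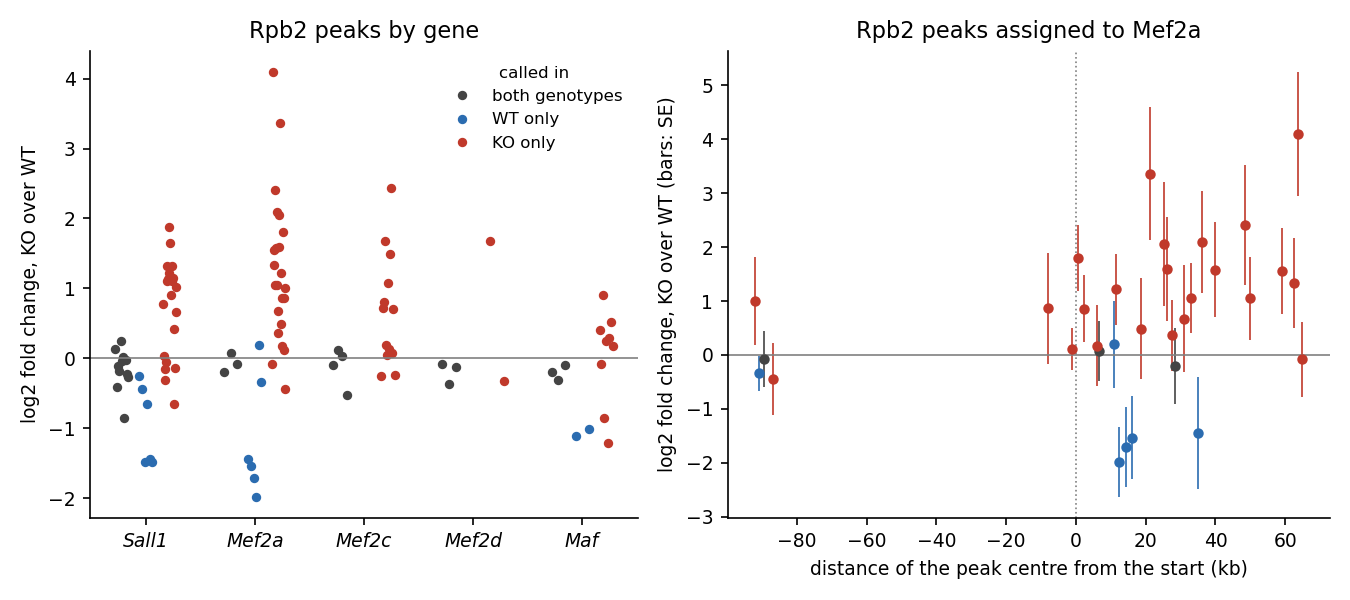
Log2 fold change (KO over WT) of each Rpb2 peak by gene (left) and, for *Mef2a*, by the distance of its centre from the start in kb (right, bars for the standard error), coloured by the genotype in which it was called. At *Mef2a*, 21 of 23 KO-only peaks lie above 0 and 5 of 6 WT-only peaks below 0. Over all Rpb2 peaks, 75.8% of the KO-only list and 7.18% of the WT-only list were higher in KO.

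*Sall1* (ENSMUSG00000031665, chr8:89027235-89044162, minus strand, mm10) lay under a 22.3 kb acetylated domain that reached from chr8:89026680 to chr8:89048974. A second domain of 28.9 kb at chr8:89382576-89411428 was centred 353 kb upstream of the start, in a stretch where no annotated gene overlapped it. By width they ranked 61st and 25th of the 55862 H3K27ac peaks. Together they held most of the *Sall1* reads, with 30.0% to 33.5% in the domain over the gene and 32.9% to 38.8% in the distal domain across the 4 libraries. The gene domain held 1750 and 4325 reads in the WT pools labelled female and male, against 8246 and 7673 in the KO pools. The distal domain held 1738 and 5363 WT reads and 9015 and 9686 KO reads, or 674 ± 259 (SD, n = 2) CPM in WT and 731 ± 65.4 (SD, n = 2) CPM in KO (log2 fold change 0.12 ± 0.38 (SE), edgeR adjusted p = 1). The distal domain held 0.993 and 1.24 times as many reads as the gene domain in the WT pools and 1.09 and 1.26 times as many in the KO pools, so the balance between them overlapped between genotypes. Another 9 acetylated peaks wider than 3000 bp, from 9.79 to 527 kb upstream, were each 6.55 kb wide or narrower. The peak with the lowest p, 627 kb upstream, rested on 32 reads of the WT pool labelled female and 0 in the other 3 libraries (adjusted p = 0.811).

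Rpb2 lay over both *Sall1* domains. The distal domain overlapped 5 Rpb2 peaks with a total of 160 and 244 WT reads and 898 and 341 KO reads. The strongest was the peak whose sequence is shown above, 360 kb upstream, with 84 and 141 WT reads and 409 and 147 KO reads (log2 fold change -0.26 ± 0.33 (SE), edgeR adjusted p = 0.774). Near the start, the strongest Rpb2 peak at chr8:89043649-89043938 in an intron, had 94.9 and 167 CPM in WT and 149.8 and 114 CPM in KO, with overlap (0.01 ± 0.30, adjusted p = 0.992). The strongest one beyond 1000 bp, at chr8:89040981-89041463 in an intron, had 79.3 and 86.9 CPM in WT and 96.6 and 101 CPM in KO (0.25 ± 0.27, adjusted p = 0.743). The lowest p belonged to an intergenic peak 2.29 kb upstream at chr8:89046323-89046579, with 51.3 and 74.4 CPM in WT and 35.5 and 33.9 CPM in KO (-0.86 ± 0.38, unadjusted p = 0.045, adjusted p = 0.398). A further 7 Rpb2 peaks over the *Sall1* body were assigned to the microRNA *Mir8110* and are not in the sums above. They held 316 and 362 WT reads and 1284 and 528 KO reads, and with them counted for *Sall1* the log2 fold change was 0.05 ± 0.09 (SE).

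*Mef2a* (ENSMUSG00000030557, chr7:67231163-67372858, minus strand, mm10) had an acetylated peak of 6.66 kb over its start and 3 domains of 6.20 to 13.5 kb upstream of it. The start domain at chr7:67369185-67375841 had 147 and 187 CPM in WT and 194 and 208 CPM in KO, without overlap (log2 fold change 0.26 ± 0.31 (SE), edgeR adjusted p = 0.934). The log2 fold change was 0.093 without the WT pool labelled female and 0.44 without that labelled male. The domain with the most reads, 11.2 kb at chr7:67455981-67467137 and 88.7 kb upstream, held 33.5% to 35.6% of the *Mef2a* H3K27ac reads in every library. It had 295 and 433 CPM in WT and 412 and 411 CPM in KO, and the KO pools lay inside the WT range (0.18 ± 0.34, adjusted p = 0.998). A domain of 13.5 kb at chr7:67439313-67452791 held 24.4% to 25.6% of the reads and overlapped the lincRNA *Gm33926*. Its assignment to *Mef2a*, like that of every peak to its gene here, is by nearest start alone. The H3K27ac peak with the lowest p lay 122 kb upstream, with 13.3 and 33.6 CPM in WT and 15.0 and 15.3 CPM in KO (-0.64 ± 0.39, adjusted p = 0.811). The 88.7 kb domain overlapped 4 Rpb2 peaks, and the strongest of these, 90.9 kb upstream, had 68.4 and 101 CPM in WT and 73.5 and 60.5 CPM in KO (-0.34 ± 0.32, adjusted p = 0.691).

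By position, the Rpb2 peaks of *Mef2a* are given as a description, since 23 of 32 were called in KO only and 6 in WT only. Upstream of the start, 6 peaks summed to 197 ± 35.4 (SD, n = 2) CPM in WT and 192 ± 3.14 (SD, n = 2) CPM in KO. From 10 kb into the gene onwards, 22 intronic peaks summed to 220.0 and 227 CPM in WT and 322 and 291 CPM in KO. Only 1 of them was called in both genotypes, and it had 8.55 and 36.2 CPM in WT and 25.6 and 13.3 CPM in KO, with overlap (log2 fold change -0.20 ± 0.70 (SE)). Of these 22, the 16 called in KO only summed to 107 ± 0.926 (SD, n = 2) CPM in WT and 248 ± 19.6 (SD, n = 2) CPM in KO, while the 5 called in WT only, 11.0 to 35.1 kb from the start, summed to 94.6 ± 13.6 and 39.03 ± 6.59 CPM. Introns 1 and 2 thus held both KO-only peaks that were higher in KO and WT-only peaks that were lower. The peak nearest the start, at chr7:67372143-67372414 and called in KO only, had 10 and 14 WT reads and 142 and 87 KO reads (log2 fold change 1.80 ± 0.61 (SE), edgeR adjusted p = 0.280). The lowest p belonged to an intronic peak at chr7:67309193-67309419 with 1 read in each WT library and 90 and 24 reads in KO (adjusted p = 0.213). The peak that DESeq2 called, chr7:67360368-67360748, had 35 and 44 WT reads and 47 and 14 KO reads (edgeR adjusted p = 0.265, DESeq2 adjusted p = 0.028), and it was named after its values were seen. Another 24 Rpb2 peaks over the 142 kb *Mef2a* body were assigned to *Lysmd4*, the neighbour beyond its end. With those counted, *Mef2a* had 763 and 816 CPM in WT and 1018 and 980.1 CPM in KO (0.34 ± 0.11, adjusted p = 0.22). Only 8 of 26 intronic Rpb2 peaks of *Mef2a* overlapped an H3K27ac peak by at least 1 base, against 70.4% of all intronic Rpb2 peaks. Its intergenic Rpb2 peaks did so in 6 of 6 cases. The intronic count was 7 of 15 at *Mef2c*, 11 of 11 at *Sall1* and 1 of 1 at *Mef2d*.

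**Figure D4:**
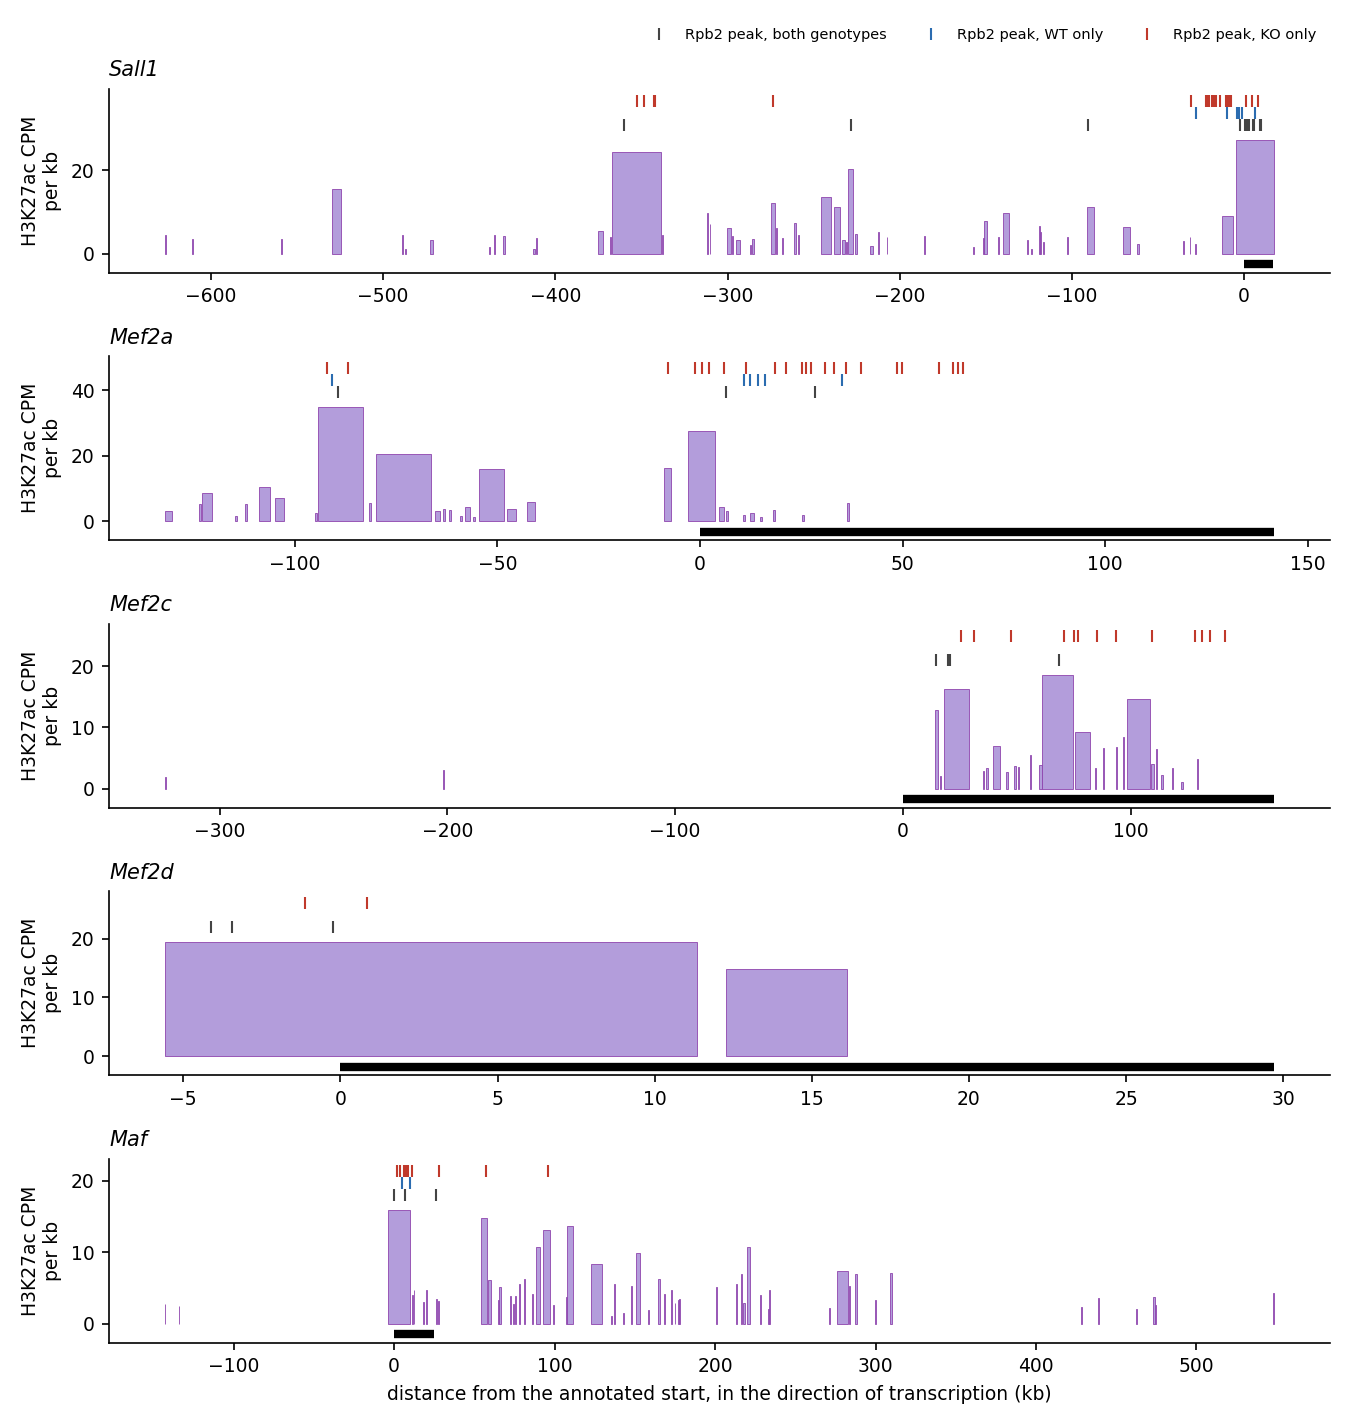
Peaks assigned to each gene by distance from its annotated start in kb, in the direction of transcription; bars are H3K27ac peaks drawn to width with their mean CPM per kb of peak, ticks above are Rpb2 peaks by the genotype in which they were called, and the black line is the gene. *Sall1* carries a 28.9 kb domain 353 kb upstream, *Mef2a* its strongest domain 88.7 kb upstream, *Mef2c* its domains inside the gene and *Maf* most of its peaks downstream.

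*Mef2c* (ENSMUSG00000005583, chr13:83504034-83667080, plus strand, mm10) had its acetylation inside the gene, with 24 of 26 H3K27ac peaks over its own body. The widest, 13.7 kb at chr13:83565033-83578709, had 166 and 279 CPM in WT and 286 and 287 CPM in KO, without overlap (log2 fold change 0.36 ± 0.32 (SE), edgeR adjusted p = 0.860). The log2 fold change was 0.034 without the WT pool labelled female and 0.79 without that labelled male. This widest domain covered an internal start and held 30.5% to 37.8% of the *Mef2c* reads. A neighbouring domain at chr13:83579472-83586192 had the lowest p, with 29.4 and 70.3 CPM in WT and 79.3 and 68.4 CPM in KO (0.55 ± 0.29, unadjusted p = 0.059, adjusted p = 0.811). Its log2 fold change too moved with the WT pools, to 0.064 without the one labelled female and to 1.33 without the one labelled male. The strongest Rpb2 peak near a start, at chr13:83524760-83524977 in the 5′ UTR, had 84.8 and 108 CPM in WT and 83.5 and 114 CPM in KO, with full overlap (0.03 ± 0.29, adjusted p = 0.976). The strongest elsewhere, at chr13:83572315-83572573 inside the widest domain, had 103 and 118 CPM in WT and 83.8 and 68.3 CPM in KO (-0.53 ± 0.28, adjusted p = 0.464). The Rpb2 peak with the lowest p, 58.7 kb into the gene, rested on 0 and 5 WT reads and 41 and 30 KO reads (adjusted p = 0.442). Of its 17 Rpb2 peaks 13 were called in KO only and 4 in both genotypes. Another 6 Rpb2 peaks over the *Mef2c* body were assigned to *C130071C03Rik*, and counting them gave a log2 fold change of 0.12 ± 0.13 (SE).

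*Mef2d* (ENSMUSG00000001419, chr3:88142372-88172086, plus strand, mm10) was the most compact, with 5 Rpb2 and 2 H3K27ac peaks. A 16.9 kb domain at chr3:88136779-88153720 over the start held 83.2% to 88.0% of its acetylation, with 279 and 356 CPM in WT and 327 and 352 CPM in KO (log2 fold change 0.10 ± 0.33 (SE), edgeR adjusted p = 1). The other peak, which had the lower p, had 37.9 and 71.9 CPM in WT and 62.9 and 56.4 CPM in KO (0.11 ± 0.29, adjusted p = 1). All 5 Rpb2 peaks lay inside the domain. The strongest was upstream of the start, at chr3:88138802-88139048, with 135 and 128 CPM in WT and 95.5 and 110.0 CPM in KO, both KO pools being lower (-0.36 ± 0.25, adjusted p = 0.586). The promoter peak at chr3:88142018-88142236 had 87.9 and 126 CPM in WT and 92.0 and 105 CPM in KO (-0.12 ± 0.28, adjusted p = 0.893). A weaker peak 1.13 kb upstream had the lowest p, with 6 and 7 WT reads and 93 and 33 KO reads (1.68 ± 0.84, adjusted p = 0.446). One more Rpb2 peak over the *Mef2d* body, with 0 and 2 WT reads and 47 and 28 KO reads, and 1 more H3K27ac peak, with 11 and 0 WT reads and 13 and 53 KO reads, were assigned to *1700113A16Rik*. Counting them gave log2 fold changes of -0.05 ± 0.17 (SE) for Rpb2 and 0.10 ± 0.30 (SE) for H3K27ac.

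*Maf* (ENSMUSG00000055435, chr8:115682942-115707794, minus strand, mm10) had a 13.9 kb domain at chr8:115697721-115711605 over its start and 50 of its 57 H3K27ac peaks downstream of its annotated end. The start domain had 236 and 202 CPM in WT and 236 and 210 CPM in KO (log2 fold change 0.02 ± 0.31 (SE), edgeR adjusted p = 1), and it also overlapped the antisense gene *Gm15655*. One downstream domain, 6.49 kb at chr8:115578312-115584796 and 125 kb from the start, had 64.4 and 70.0 CPM in WT and 42.7 and 40.9 CPM in KO, and the genotypes did not overlap. Its log2 fold change was -0.69 ± 0.29 (SE), with an unadjusted p of 0.0197, an edgeR adjusted p of 0.811 and a DESeq2 adjusted p of 0.041. Within the *Maf* reads of each library it took 9.25% and 9.11% in WT and 6.38% and 6.03% in KO. Leaving out any 1 pool kept its log2 fold change between -0.75 and -0.62, but scaling to library totals brought it to -0.023 while the median of all H3K27ac peaks went from -0.21 to 0.53. Of the 57 peaks, 6 lay inside the neighbouring gene *Wwox*. The strongest Rpb2 peak at chr8:115707683-115707900, over the annotated start, had 132 and 169.9 CPM in WT and 159 and 122 CPM in KO (-0.10 ± 0.25, adjusted p = 0.896). The strongest elsewhere, 5.96 kb from the start, had 30.3 and 44.1 CPM in WT and 26.9 and 33.5 CPM in KO (-0.31 ± 0.46, adjusted p = 0.817). The Rpb2 peak with the lowest p, 6.68 kb from the start, had 26.4 and 25.7 CPM in WT and 14.7 and 7.41 CPM in KO (-1.21 ± 0.63, adjusted p = 0.464). All 14 Rpb2 peaks of *Maf* overlapped an H3K27ac peak, against 76.6% of all Rpb2 peaks and 72 of 105 over the 5 genes.

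The share of a gene's Rpb2 reads in peaks centred within 1000 bp of a start was compared between pools by an exact two-sided permutation test, whose smallest p with 2 against 2 is 0.333. At *Mef2a* the share was 1.75% and 1.82% in WT and 4.35% and 5.84% in KO. That share is 1 peak, which was called in KO only, so its direction follows from the peak list and it was not tested. At *Sall1* it was 15.0% and 18.5% in WT and 16.3% and 14.9% in KO (exact permutation p = 0.667). At *Mef2c* it was 35.1% and 43.0% in WT and 37.8% and 40.9% in KO, at *Mef2d* 36.5% and 42.9% against 38.8% and 40.5%, and at *Maf* 33.0% and 44.3% against 44.1% and 37.4%, each with overlap and an exact permutation p of 1. For H3K27ac only the *Mef2a* start domain was centred within 1000 bp of a start, and it held 16.7% and 15.4% of the reads in WT and 16.5% and 18.0% in KO (exact permutation p = 0.667).

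Per kb of peak, the WT Rpb2 level was highest at *Mef2d*, with 281 ± 13.8 (SD, n = 2) CPM per kb. *Maf* with 105 ± 5.29 and *Sall1* with 105 ± 12.3 CPM per kb followed, and their pools overlapped. *Mef2c* had 89.1 ± 0.813 (SD, n = 2) CPM per kb and *Mef2a* 44.9 and 50.6 CPM per kb in its 2 pools, each below the gene before it in both pools. These levels stood at the 86.9th, 41.0th, 40.9th, 32.7th and 11.6th percentile of the 10206 genes with an Rpb2 peak. In KO the levels were 264 ± 43.4, 99.5 ± 3.14, 110.2 ± 4.77, 98.4 ± 0.251 and 62.3 ± 0.203 CPM per kb (SD, n = 2) in the same order. The H3K27ac levels in WT were 18.0 ± 4.86 at *Mef2d*, 16.3 ± 4.65 at *Mef2a*, 15.1 ± 5.43 at *Sall1*, 11.4 ± 3.65 at *Mef2c* and 9.36 ± 1.21 CPM per kb at *Maf* (SD, n = 2). The ranges of all neighbours in that order overlapped, but the order itself was the same in both pools. These H3K27ac levels stood at the 93.5th, 90.4th, 87.6th, 73.6th and 60.8th percentile of 16938 genes. A level per kb falls as more weak peaks are assigned to a gene. With only the strongest peak within 1000 bp of a start, the percentiles for Rpb2 were 95.1 at *Maf*, 88.3 at *Mef2d*, 86.1 at *Sall1*, 85.5 at *Mef2c* and 2.73 at *Mef2a*, whose peak was called in KO only while the others were called in both genotypes.

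The genes most like each member were found by the root mean square difference of log2 summed CPM over the 8 libraries, among 9613 genes with peaks of both kinds. For *Sall1* they were *Frmd4a* (0.21), *Srgap2* (0.32) and *Ly86* (0.33), and for *Mef2a* *Cd180* (0.12), *Elmo1* (0.14) and *9430078K24Rik* (0.16). For *Mef2c* they were *Rasgrp3* (0.09), *Spi1* (0.13), which encodes PU.1, and *Bmf* (0.14). For *Mef2d* they were *Cdt1*, *Fam102b* and *Disc1* (0.12 to 0.13), and for *Maf* *Mir1901* (0.17), *Sla* (0.19) and *Rasgrp3* (0.20). Within the 5 genes, *Mef2c* and *Maf* were the most alike (0.21) and *Sall1* and *Mef2d* the least (2.11).

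Genes linked to the 5 factors were read from the same fits, and none of them passed an edgeR adjusted p of 0.05 in either mark. Of the relatives *Sall2*, *Sall3*, *Sall4* and *Mef2b*, 2 of 4 had Rpb2 peaks and 4 of 4 had H3K27ac peaks, with median log2 fold changes of -0.40 and -0.53 against 0.02 and -0.11 for all genes. *Sall4* had the lowest p of these for H3K27ac, on 88 and 0 WT reads and 0 and 10 KO reads, and *Sall2* for Rpb2, with 19.1 and 52.9 CPM in WT and 22.04 and 24.6 CPM in KO. Of 13 NuRD subunits, the complex that Sall proteins recruit, 10 were measured for Rpb2 (6 higher and 4 lower in KO, median 0.09) and 13 for H3K27ac (4 higher and 9 lower, median -0.23). The lowest p were those of the deacetylase *Hdac2* for Rpb2, with 38.3 ± 8.90 CPM in WT and 19.6 ± 1.55 CPM in KO (SD, n = 2), and of the methyl-CpG reader *Mbd2* for H3K27ac, with 59.7 ± 41.2 and 33.8 ± 3.32 CPM (SD, n = 2).

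Of 19 regulators of Mef2 factors, 14 were measured for Rpb2 (4 higher and 10 lower, median -0.15) and 17 for H3K27ac (13 higher and 4 lower, median 0.12). The calcineurin subunit *Ppp3r1* had 90.8 and 108 CPM of Rpb2 in WT and 43.3 and 24.6 CPM in KO, without overlap. Its log2 fold change was -1.53 ± 0.37 (SE), with an edgeR adjusted p of 0.121 and a DESeq2 adjusted p of 0.0488. For H3K27ac the lowest p was that of *Mapk7*, the kinase ERK5 that phosphorylates Mef2 proteins, with 58.6 and 77.5 CPM in WT and 91.6 and 99.6 CPM in KO (0.49 ± 0.24, adjusted p = 0.787). Its Rpb2 level was 26.7 and 17.2 CPM in WT and 66.1 and 60.5 CPM in KO, also without overlap (1.54 ± 0.43, adjusted p = 0.176). Of 10 other Maf and bZIP partner genes, 9 were measured for Rpb2 (2 higher and 7 lower, median -0.04) and 10 for H3K27ac (5 higher and 5 lower, median 0.06). The lowest p were those of *Nfe2l2*, which encodes NRF2, for Rpb2 (517 ± 32.0 CPM in WT and 619.8 ± 50.9 CPM in KO, SD, n = 2, adjusted p = 0.478) and of *Mafa* for H3K27ac (42.0 ± 3.64 and 26.1 ± 0.757 CPM, SD, n = 2, adjusted p = 0.66).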

How the data were processed

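ChIP-seq for Rpb2 and H3K27ac was analysed in 4 libraries per mark, 2 pools per genotype, and the 4 input samples were not analysed here. Reads were 51-nt single-end, and Bowtie 2, HOMER and mm10 are named in the submitters' processing notes without versions. According to the methods, unique alignments went into peak calling, and confident peaks were picked between replicates by the irreproducible discovery rate. The deposited list of each mark holds peaks called in WT, in KO or in both. A listed peak could still have 0 reads in 1 pool of the genotype in which it was called. The authors deposited raw read counts for each such peak with its nearest gene, and library totals stand in the column headers. The nearest gene can differ from the gene that a peak lies in. Chromosome lengths fitted GRCm38, and gene positions came from GENCODE vM21.

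Groups followed the GEO labels. Peaks averaging 4 reads or more in either genotype, and reads summed per gene, were tested with edgeR 4.0.16 (quasi-likelihood F test, TMM factors, genotype as the only term) in R 4.3.3, with Benjamini-Hochberg adjustment over all peaks or genes. CPM are per 1000000 reads in peaks after TMM scaling. Peaks with no gene name (1 for Rpb2 and 8 for H3K27ac, at most 0.0026% of reads in peaks) stayed out of the sums per gene. Shares were compared over every split of the pools with NumPy 2.4.6. The fits were tested on simulated data with 200 changed genes. At a 2-fold change they recovered 64 of the 200 for Rpb2 and 56 for H3K27ac, with 5 and 36 false calls. These false calls were slightly more than the threshold allows for Rpb2 and far more for H3K27ac. A gene that did not pass is therefore not shown to be unchanged.

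The alternatives were DESeq2 1.42.0, the newer edgeR method, other scalings and read minimums, the sex label as a block, subsets of peaks, and leaving out each pool. A pair of alternatives was chosen after seeing the data: shares by overlap with a start, and counting every peak over the body of a gene for that gene. Named were *Cx3cr1*, the 5 genes, for each gene and mark the peak with the most reads within 1000 bp of a start, that with the most reads elsewhere and that with the lowest p, the 3 most similar genes, and the lowest-p gene of each list and mark. The members and lists were chosen with earlier results of these data known. The 2 pools of a genotype came from different mice, and p-values measure the spread between such pools. Some marker genes are not reported here and were left out of the marker sums.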

Additional observations from a re-analysis of the deposited data

Results flagged for a closer look

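The pools labelled female and male gave opposite signs for some genes. None of these differences was tested, since there was 1 pool per label and genotype, and the Rpb2 library labelled WT female held reads of Y-linked genes. For Rpb2, the log2 ratio of KO to WT at *Sall1* was 0.24 in the pools labelled female and -0.09 in those labelled male. At *Mef2d* the Rpb2 ratio was -0.31 in the pools labelled female and 0.12 in those labelled male. For H3K27ac, the ratio at *Sall1* was 0.39 and -0.25 in the same order. At *Mef2a* it was 0.47 and -0.12, and at *Mef2d* 0.36 and -0.11. At *Maf* it was 0.0058 and -0.23. The WT pool labelled female had 15.9% of its H3K27ac reads in peaks, against 61.1% to 65.3% in the other libraries, and its part in these ratios was not tested.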

How the results depend on the processing

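With 2 pools per genotype the calls over all features depended on the method. Against 2 called Rpb2 peaks and 0 genes, a minimum of 10 reads in every library gave 30 and 6, the newer quasi-likelihood method 272 and 40, DESeq2 1022 and 28, and peaks called in both genotypes 8 and 8. Library totals gave 28 Rpb2 genes, and peaks within 1000 bp of a start gave 0 Rpb2 peaks. At an unadjusted p under 0.05, edgeR passed 566 Rpb2 genes with KO higher and 535 with KO lower, and 161 and 937 H3K27ac genes. Against 13 called H3K27ac peaks, library totals, the newer method, peaks within 1000 bp and peaks in both genotypes each gave 0, a minimum of 10 reads gave 1, and DESeq2 gave 240. Against 0 H3K27ac genes, library totals gave 8 and DESeq2 213. Leaving out 1 pool gave 0 to 2210 Rpb2 peaks, 0 to 264 Rpb2 genes, 2 to 8157 H3K27ac peaks and 88 to 3807 H3K27ac genes.

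The sex label as a replicate block gave 4 Rpb2 peaks, 43 Rpb2 genes and 140 H3K27ac genes, and none of the 5 genes or their named peaks. Deviations of same-label pools correlated at -0.0080 for Rpb2 and 0.0043 for H3K27ac. In H3K27ac, Y-linked genes gave 281 (WT) and 656 (KO) reads in the libraries labelled male and 0 in those labelled female. The Rpb2 library labelled WT female held 136 such reads, so the Rpb2 correlation cannot speak to sex.

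Of 442 values of 36 single genes and peaks under an alternative, 381 kept their direction and their side of the threshold, and 44 changed sign. Leaving out a pool gave 22 of these sign changes. The remaining values kept their direction and were newly called. Apart from the *Maf* H3K27ac peak chr8:115578312 under DESeq2, these calls came from fits that left 1 WT library, and they are not counted here. Library totals took the median of all features from 0.041 to 0.37 for Rpb2 peaks, 0.018 to 0.27 for Rpb2 genes, -0.21 to 0.53 for H3K27ac peaks and -0.11 to 0.63 for H3K27ac genes. They gave log2 fold changes of 0.19 at *Mef2d* and 0.17 at *Maf* for Rpb2, 0.53 at *Maf* for H3K27ac, and 0.22, 0.21 and 0.036 at the Rpb2 peaks chr3:88142018, chr8:115707683 and chr8:115700771. Peaks within 1000 bp gave 0.074 at *Maf* for Rpb2, 0.0080 at chr3:88142018 and 0.024 at chr8:115707683. Peaks in both genotypes gave 0.047 at *Maf* for Rpb2, 0.052 and 0.064 at the same 2 peaks, and -0.038 at the *Maf* start domain. A minimum of 10 reads gave 0.014 and 0.029 at those 2 peaks, -0.041 at that domain and -0.0023 at *Sall1* for H3K27ac. At *Sall1* DESeq2 size factors, the newer method and DESeq2 gave -0.0042, -0.0052 and -0.0041, and at the *Maf* start domain DESeq2 size factors and DESeq2 gave -0.040 and -0.039. The causes of these sign changes were not tested.

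Leaving out 1 pool gave log2 fold changes of -0.068 to 0.19 at *Sall1* and -0.26 to 0.073 at *Mef2d* for Rpb2. For H3K27ac the ranges were -0.30 to 0.45 at *Sall1*, -0.12 to 0.47 at *Mef2a*, -0.046 to 0.62 at *Mef2c*, -0.15 to 0.41 at *Mef2d* and -0.24 to 0.021 at *Maf*. For Rpb2 peaks they were -0.35 to 0.48 at chr8:89043649, -0.21 to 0.24 at chr13:83524760, -0.37 to 0.17 at chr3:88142018 and -0.31 to 0.095 at chr8:115707683. For H3K27ac peaks they were -0.24 to 0.57 at chr8:89382576, -0.079 to 0.48 at chr7:67455981, -1.15 to 0.19 at chr7:67493380, -0.075 to 0.29 at chr3:88136779, -0.28 to 0.65 at chr3:88154654 and -0.085 to 0.13 at chr8:115697721, and, with no change of sign, 0.093 to 0.44 at chr7:67369185, 0.034 to 0.79 at chr13:83565033 and 0.064 to 1.33 at chr13:83579472.

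The KO minus WT difference in the Rpb2 share near a start became -6.24 percentage points within 3000 bp and -5.26 by overlap at *Mef2c*, and 3.56 by both at *Mef2d*. Leaving out 1 pool gave -2.84 to 0.63 at *Sall1*, 2.56 to 4.05 at *Mef2a*, -3.68 to 4.23 at *Mef2c*, -3.25 to 3.15 at *Mef2d* and -3.50 to 7.76 at *Maf*. For H3K27ac, where no peak of the 4 genes other than *Mef2a* was centred within 1000 bp, the difference was 0.571 at *Sall1* by overlap, 1.90 within 3000 bp and 1.998 by overlap at *Mef2c*, and -0.571 at *Mef2d* and 2.98 at *Maf* by both. The strongest start peak alone put the Rpb2 level per kb at the percentiles 86.1 (*Sall1*), 2.73 (*Mef2a*), 85.5 (*Mef2c*), 88.3 (*Mef2d*) and 95.1 (*Maf*).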
